A study of Mus musculus with 8 samples.

Results

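The level of 10 genes known for activated fibroblasts and pericytes was compared between cancers of the gastric squamous-columnar junction (SCJ) of the mouse and the same region of control stomachs. The genes were Pdgfa and Pdgfb, their receptors Pdgfra and Pdgfrb, the surface proteins Fap and Thy1, the matrix proteins Postn, Tnc and Sparc, and the collagen cross-linking enzyme Loxl2. They were chosen by symbol from 23361 genes in the deposited table, by a rule that does not use their values, though with earlier results of these data known, and all 10 were found. The SCJ is the border between the keratinized forestomach and the glandular stomach. RNA with poly(A) tails was sequenced from 5 cancers and 3 controls. The cancers came from mice with 3 engineered parts: a tamoxifen-inducible Cre under Lgr5 (Lgr5 eGFP-Ires-CreERT2), floxed Trp53 and Rb1 (Trp53 loxP/loxP Rb1 loxP/loxP), and the Ai9 reporter, which turns on tdTomato after recombination. These tumors carry the label Trp53-/-Rb1-/-, they formed after tamoxifen, and their borders were set by tdTomato. The controls were age-paired, wild type stomachs, and the methods give tamoxifen to control mice of the tumor induction experiments without saying whether these stomachs came from them. Genotype, Cre and the tumor itself therefore cannot be told apart, nor can induction if the controls lacked it. The Cre is driven by Lgr5, so fibroblasts and pericytes without Lgr5 were not its target. The methods count the controls as 3 stomachs, so they are separate animals. Nothing states whether each of the 5 tumors came from its own animal, and if some did not, the p-values measure only the spread between these samples.

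Platelet-derived growth factors (PDGF) are secreted dimers that bind receptor tyrosine kinases on mesenchymal cells. PDGFRα is typical of fibroblasts and responds to PDGF-A. PDGFRβ is typical of pericytes, the cells that wrap capillaries, and PDGF-B from endothelial cells recruits them. In wounds and in many carcinomas fibroblasts take an activated state, in which they display FAP and deposit collagen together with periostin, tenascin-C and SPARC. All values are FPKM, the fragments of a transcript scaled by its length and by the mapped fragments of the library, rounded to whole numbers in the deposited table. A value of 1 therefore stands for anything from 0.5 to 1.5. In bulk tissue, fewer cells of a type and less RNA per cell cannot be told apart.

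Some facts of the series bear on every gene below. FPKM summed to between 403569 and 573858 in the cancers and to between 887141 and 992550 in the controls, and read numbers are unknown. The 10 most abundant genes took 39.3% to 44.3% of that sum in the controls and 11.1% to 19.6% in the cancers. When each library was rescaled to the same sum, the scale known as TPM, the median gene moved from -0.04 to 0.81 in log2 fold change (cancer minus control). A change of sign with TPM is therefore given for the 10 genes and for other genes whose log2 fold change is printed without a call. Uncalled genes named by their FPKM alone could change sign too, as Acta2 did (from -0.63 to 0.32). Of the deleted genes, Rb1 was at 4 to 6 FPKM in the cancers and 9 to 10 in the controls (-0.90 ± 0.16, SE, on the log2 scale, limma adjusted p = 0.0059). With TPM the difference in Rb1 was -0.05 and its call was lost (limma adjusted p = 0.84). Trp53 in FPKM did not differ beyond its spread (-0.08 on the log2 scale, limma adjusted p = 0.87). With TPM Trp53 passed as higher at 0.86 (limma adjusted p = 0.020), near the median gene on that scale. A value for a whole gene cannot show the loss of single exons.

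Of the 10 genes, Pdgfrb, Thy1 and Loxl2 were higher in the cancers and 0 were lower. Here the test was limma on log2(FPKM + 1), with Benjamini-Hochberg adjustment over the 14357 genes that reached an FPKM of 1 in at least 3 samples and a threshold of 0.05. All 10 genes entered it, and Fap did so only through the cancers. Among all genes tested, 16.2% were higher and 18.3% were lower by this rule, and with only 10 genes, 3 higher calls stand close to that background. Every cancer lay above every control for the same 3 genes, which held for 14.4% of all genes tested. The reverse held for 0 of the 10 genes and for 19.8% of all genes tested. In sign, the difference was above 0 for 8 genes and below 0 for Pdgfa and Pdgfb. Its median over the 10 genes was 0.98, or 1.05 without Fap, beside -0.04 for all genes tested. At an unadjusted p under 0.05, 6 of 10 were higher and Pdgfb was lower, where 22.6% of all genes tested were higher and 47.9% differed in either direction. With TPM 7 genes were higher, against a background of 50.0% of all genes higher and 3.68% lower, with a median of 1.67 beside 0.81. The 3 calls depended on all 3 controls: without control 1, 2 or 3 the count was 0 each time, with an unadjusted p under 0.05 for 4, 6 or 3 of the 10 genes in either direction, beside 37.5%, 38.4% and 38.8% of all genes tested.

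**Figure D1:**
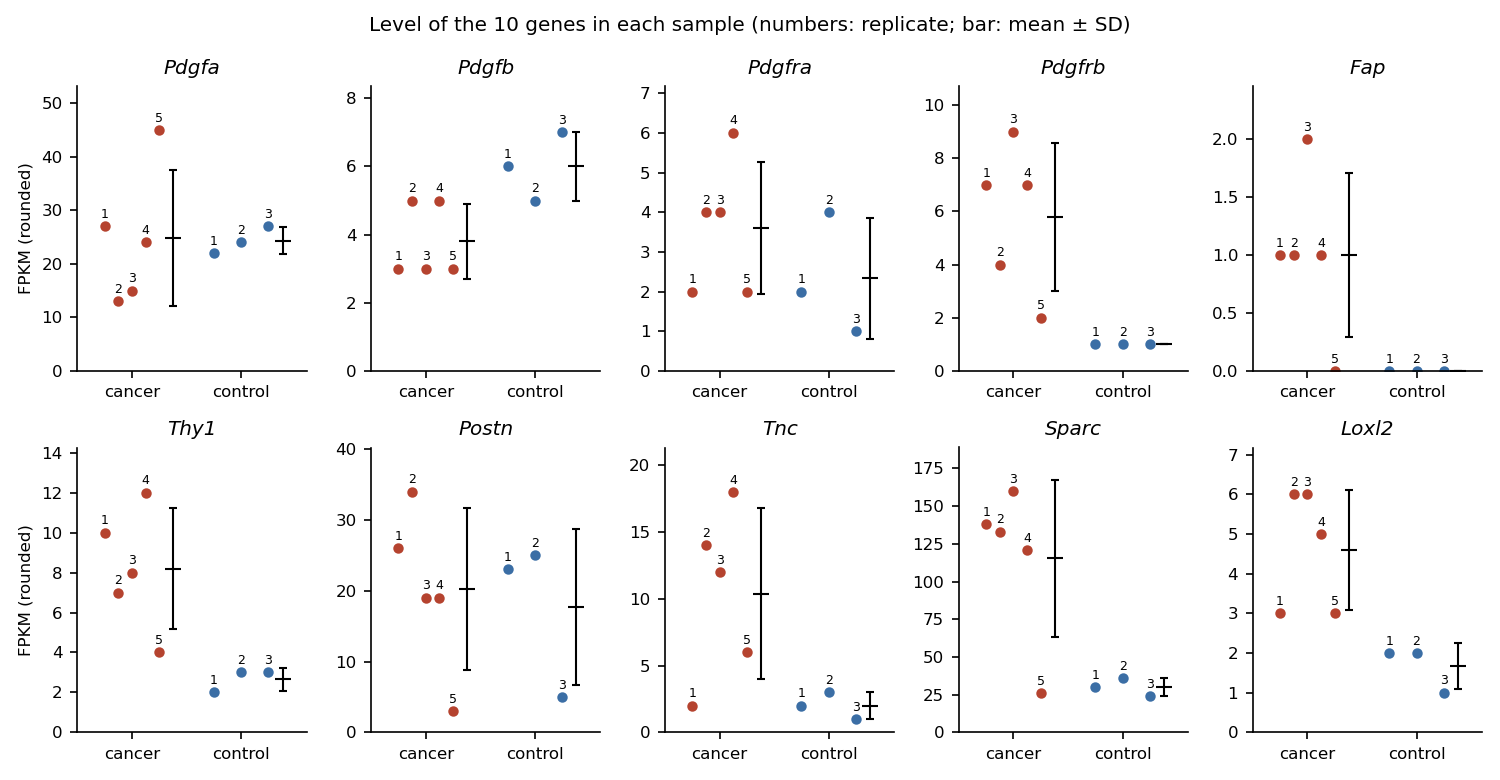
FPKM of each of the 10 genes (vertical axes, from 0, rounded FPKM) in 5 cancers (red) and 3 controls (blue), with the replicate number at each point and a bar for the mean ± SD of the group. For Pdgfrb, Thy1 and Loxl2 every cancer lies above every control, and cancer 5 is the lowest cancer or ties with it for 8 of the 10 genes.

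Neither ligand was called. Pdgfa (chromosome 5, 138976972 to 138994953 in mm10), the ligand of PDGFRα that epithelial cells commonly make, read 27, 13, 15, 24 and 45 FPKM in cancers 1 to 5 against 22, 24 and 27 in controls 1 to 3. Cancer 5 was above every control, cancers 2 and 3 were below, and the means were close, at 24.8 ± 12.7 (SD, n = 5) and 24.3 ± 2.52 (SD, n = 3). Its log2 fold change was -0.10 ± 0.37 (SE), with limma adjusted p = 0.85, and it was 0.84 with TPM, near the shift of all genes on that scale. Pdgfb (chromosome 15, 79995876 to 80014808), the ligand that recruits pericytes and is stored in platelets, read 3, 5, 3, 5 and 3 FPKM in the cancers against 6, 5 and 7 in the controls. No cancer exceeded a control, but cancers 2 and 4 tied with control 2. For Pdgfb the log2 fold change was -0.56 ± 0.21 (SE), with an adjusted p = 0.073 in limma and p = 0.071 in the two-sided exact permutation test. With TPM it turned to 0.25, below the median of all genes on that scale. Without cancer 2 or without cancer 4, and with array weights, Pdgfb passed the threshold as lower, with a smallest adjusted p of 0.023 from limma.

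Of the receptors, Pdgfrb rose and Pdgfra was not called. Pdgfrb, on chromosome 18, read 7, 4, 9, 7 and 2 FPKM in the cancers and was listed at 1 in all 3 controls. Cancer 3 was the highest and cancer 5 the lowest, and even cancer 5 was above the controls. Pdgfrb had a log2 fold change of 1.65 ± 0.38 (SE), with an adjusted p = 0.016 in limma and p = 0.036 in the two-sided exact permutation test. The ratio of the mean FPKM was 5.8, and the rounding of the values alone allows 3.53 to 12.6. The controls show no spread because all 3 round to the same number. Its call was lost without any 1 of the 3 controls, with an adjusted p of at most 0.056 from limma, and was kept without any 1 of the cancers and under the other scalings, pseudocounts and variance models. Pdgfra (chromosome 5, 75152291 to 75198204), the receptor of resting and activated fibroblasts, read 2, 4, 4, 6 and 2 FPKM in the cancers against 2, 4 and 1 in the controls. The groups overlapped, and only cancer 4 exceeded every control. Its log2 fold change was 0.49 ± 0.39 (SE), with an adjusted p = 0.34 in limma and p = 0.30 in the two-sided exact permutation test. With TPM it was 1.28 (limma adjusted p = 0.026). The receptors were compared with each other by their ratio within each sample.

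Of the surface proteins, Thy1 rose. Thy1 (chromosome 9, 44043384 to 44048579), which encodes the glycoprotein CD90 of fibroblasts, neurons and mouse T cells, read 10, 7, 8, 12 and 4 FPKM in the cancers against 2, 3 and 3 in the controls. Cancer 4 was the highest, and the lowest cancer, cancer 5, stood above the highest control. Thy1 had a log2 fold change of 1.27 ± 0.31 (SE), with an adjusted p = 0.018 in limma and p = 0.018 in the two-sided exact permutation test, the smallest that 5 against 3 samples allow. The means were 8.2 ± 3.03 (SD, n = 5) and 2.67 ± 0.58 (SD, n = 3), a ratio of 3.08 for which rounding allows 2.43 to 4.02. Without any 1 of the 3 controls the call was lost, with adjusted p up to 0.074 from limma. T cells and neurons also make Thy1. The 10 T cell markers found in the table summed to 56 FPKM in cancer 1 against 5 to 12 in cancers 2 to 5 and 4 to 6 in the controls. The neuroendocrine and neuronal markers summed to 8065 to 17904 in the cancers against 129 to 194 in the controls. Their part in the Thy1 values was not tested. Fap (chromosome 2, 62500945 to 62574021), the membrane protease that marks activated fibroblasts, was listed at 1, 1, 2, 1 and 0 in the cancers and at 0 in all 3 controls. It was near the lowest step of the table in every sample, so no fold change is given. It entered the test only through the cancers, so its adjusted p, 0.056 from limma with all samples and 0.0059 without cancer 5, is given as a description.

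None of the 3 matrix proteins was called with all 8 samples, but their patterns were unlike. Sparc (chromosome 11, 55394501 to 55420080), a collagen-binding glycoprotein secreted by fibroblasts and endothelial cells, was the most abundant of the 10 genes in both groups. Its FPKM were 138, 133, 160, 121 and 26 in the cancers against 30, 36 and 24 in the controls. Cancers 1 to 4 were far above the controls, and cancer 5 lay within their range. Over all samples the log2 fold change was 1.70 ± 0.58 (SE), with an adjusted p = 0.053 in limma and p = 0.11 in the two-sided exact permutation test. Without cancer 5 it was 2.18 (limma adjusted p = 0.00079). Tnc (chromosome 4, 63959785 to 64047015), a large glycoprotein of wounds and of tumor stroma, read 2, 14, 12, 18 and 6 FPKM in the cancers against 2, 3 and 1 in the controls. Here cancer 1 was the low one, within the range of the controls, and cancers 2 to 5 were above it. For Tnc the log2 fold change was 1.72 ± 0.60 (SE), with an adjusted p = 0.058 in limma and p = 0.071 in the two-sided exact permutation test. Without cancer 1 the log2 fold change of Tnc was 2.14 (limma adjusted p = 0.012), and without any other 1 cancer its adjusted p was 0.078 to 0.12 in limma. Without cancer 1, 2, 3 or 4 that of Sparc was 0.088 to 0.11 in limma. With quantile normalization Sparc passed and Tnc did not (limma adjusted p = 0.034 and 0.11). Both Sparc and Tnc passed the threshold as higher with TPM, with size factors by the median of ratios and with array weights, and among genes with a mean FPKM of 5 or more.

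Postn overlapped between the groups. Postn (chromosome 3, 54361107 to 54391041), which encodes periostin, a matrix protein of activated fibroblasts, read 26, 34, 19, 19 and 3 FPKM in the cancers against 23, 25 and 5 in the controls. Cancers 1 and 2 were above every control and cancer 5 was below every control, and each group had 1 sample at 5 or below. Its log2 fold change was 0.15 ± 0.78 (SE), with limma adjusted p = 0.90. This standard error was the widest of the 10 genes, and the sign turned under 4 alternatives. With TPM it was 1.06 (limma adjusted p = 0.26). Only Sparc and Pdgfa had a higher mean FPKM than Postn in the controls, where it was at 17.7 ± 11.0 (SD, n = 3), and the same held in the cancers, where it was at 20.2 ± 11.4 (SD, n = 5).

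**Figure D2:**
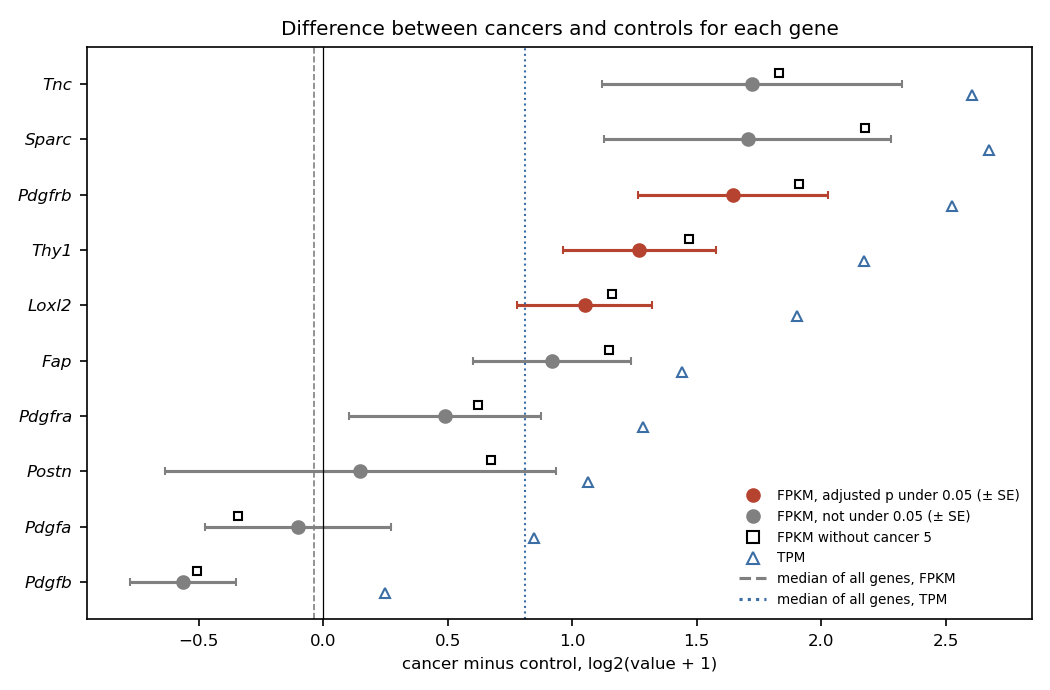
Cancer minus control on the log2(value + 1) scale for each gene (horizontal axis), as circles with standard errors from limma for FPKM (red where the adjusted p was under 0.05), as squares for FPKM without cancer 5 and as triangles for TPM; vertical lines mark the median of all genes on each scale. Leaving out cancer 5 moves Sparc from 1.70 to 2.18 and Postn from 0.15 to 0.68, and the triangle of Pdgfb falls to the left of the TPM median.

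The promoters of these 3 matrix genes are shown because 2 of them share the larger differences and Postn does not. RefSeq promoters of GRCm38.p6, the build also known as mm10, were at hand for 5 of the 10 genes. Each line gives the 120 bases before 1 transcription start, on the strand of the gene and without any base transcribed from that start. Capitals mark a motif where 1 was found. The first is Sparc at chr11:55420081-55420200 (minus strand), the next is Tnc at chr4:64047016-64047135 (minus strand), and the last is Postn at chr3:54360987-54361106 (plus strand).
Sparc: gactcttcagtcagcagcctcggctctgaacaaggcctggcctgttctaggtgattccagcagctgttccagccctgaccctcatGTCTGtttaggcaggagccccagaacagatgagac
Tnc: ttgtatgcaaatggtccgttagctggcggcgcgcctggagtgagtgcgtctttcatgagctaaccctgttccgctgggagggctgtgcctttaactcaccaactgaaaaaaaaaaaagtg
Postn: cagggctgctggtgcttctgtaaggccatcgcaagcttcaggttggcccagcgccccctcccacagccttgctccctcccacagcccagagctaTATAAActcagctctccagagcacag
Letters searched on both strands were those of the TATA box, spelled TATAAA, of the GC box, spelled GGGCGG, of the AP-1 site, spelled TGANTCA, of the TEAD site, spelled GGAATG, and of the SMAD box, spelled CAGAC. The capitals in Sparc are CAGAC read on the opposite strand, at -35 to -31 from the start. Those in Postn are TATAAA, at -26 to -21. The Tnc window held none of the 5 motifs. Both Tnc and Postn have another RefSeq start with a window of its own, and the motifs differ there: the other Tnc window held CAGAC on the opposite strand, at -70 to -66, and the other Postn window held no TATAAA. The other Postn start, at 54359267, lies upstream of the Postn window shown, so that window is inside the gene as counted from there. In windows of the same length, TATAAA was found in 6.33%, GGGCGG in 26.7%, TGANTCA in 3.40%, GGAATG in 5.75% and CAGAC in 22.3% of 32536 distinct promoters, so a match to CAGAC is common and a match to TATAAA is not. These matches describe letters, and no binding was measured.

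Loxl2 rose, and so did Lox and Loxl1 of the same family. Lysyl oxidases oxidize lysines of collagen and elastin, the step that leads to cross-links. Loxl2 (chromosome 14, 69609476 to 69695834) read 3, 6, 6, 5 and 3 FPKM in the cancers against 2, 2 and 1 in the controls. Every cancer was above every control, but cancers 1 and 5 only by a single step of the rounded scale. Loxl2 had a log2 fold change of 1.05 ± 0.27 (SE), with an adjusted p = 0.023 in limma and p = 0.036 in the two-sided exact permutation test, and the ratio of means was 2.76, for which rounding allows 1.89 to 4.37. The call was lost with quantile normalization (limma adjusted p = 0.11) and without any 1 control (limma adjusted p between 0.053 and 0.084).

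Of the other 4 lysyl oxidases, 3 could be tested and 2 were higher, where 16.2% of all genes tested were higher. With TPM 3 were higher, beside 50.0% of all genes. Lox, the founding member, read 4, 5, 10, 11 and 3 FPKM in the cancers against 1 in each control (1.79 ± 0.38, SE, on the log2 scale, limma adjusted p = 0.012). Loxl1, which acts on elastin, had 3, 7, 9, 11 and 2 in the cancers and 1 in each control (1.70 ± 0.47, SE, on the log2 scale, limma adjusted p = 0.027). Both were highest in cancer 4 and lowest in cancer 5. Loxl3 was listed at 8, 3, 6, 1 and 0 in the cancers and at 0 in the controls and did not pass. It entered the test only through the cancers, so its adjusted p of 0.077 from limma is given as a description. Loxl4 was listed at 1 in cancer 2 and at 0 in every other sample.

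Ratios of 2 genes within a sample do not move with the scaling of a library, apart from the effect of the added 1, and 6 were compared. Each is the log2 ratio of FPKM + 1, tested by exact permutation of the group labels (two-sided, 56 arrangements), and 0 of 6 passed after adjustment by Benjamini-Hochberg, where a single ratio at the smallest p could reach only 0.11. The ratio of Pdgfb to Pdgfrb, ligand to receptor, was -1, 0.26, -1.32, -0.42 and 0.42 in the cancers against 1.81, 1.58 and 2 in the controls. The ligand was listed above the receptor in every control, the receptor above the ligand in cancers 1, 3 and 4, and all 5 cancers lay below all controls. The difference was -2.21 (exact permutation test, p = 0.018, the smallest possible, and adjusted p = 0.11 over the 6 ratios). The ratio of Postn to Sparc was on average -2.53 ± 0.41 (SD, n = 5) in the cancers and -0.98 ± 0.94 (SD, n = 3) in the controls, where control 3, at -2.06, lay among the cancers. Its difference of -1.56 had an exact permutation p = 0.036 and an adjusted p = 0.11. The ratio of Pdgfrb to Pdgfra was 1.42, 0, 1, 0.19 and 0 in the cancers against -0.58, -1.32 and 0 in the controls. In 3 of 5 cancers it was above every control, and the difference of 1.16 had an exact permutation p = 0.071 and an adjusted p = 0.14. For Pdgfb to Pdgfa the difference was -0.46, for Pdgfa to Pdgfra -0.59 and for Loxl2 to Lox -0.74, with adjusted p of 0.45, 0.45 and 0.16 from the same exact permutation test.

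**Figure D3:**
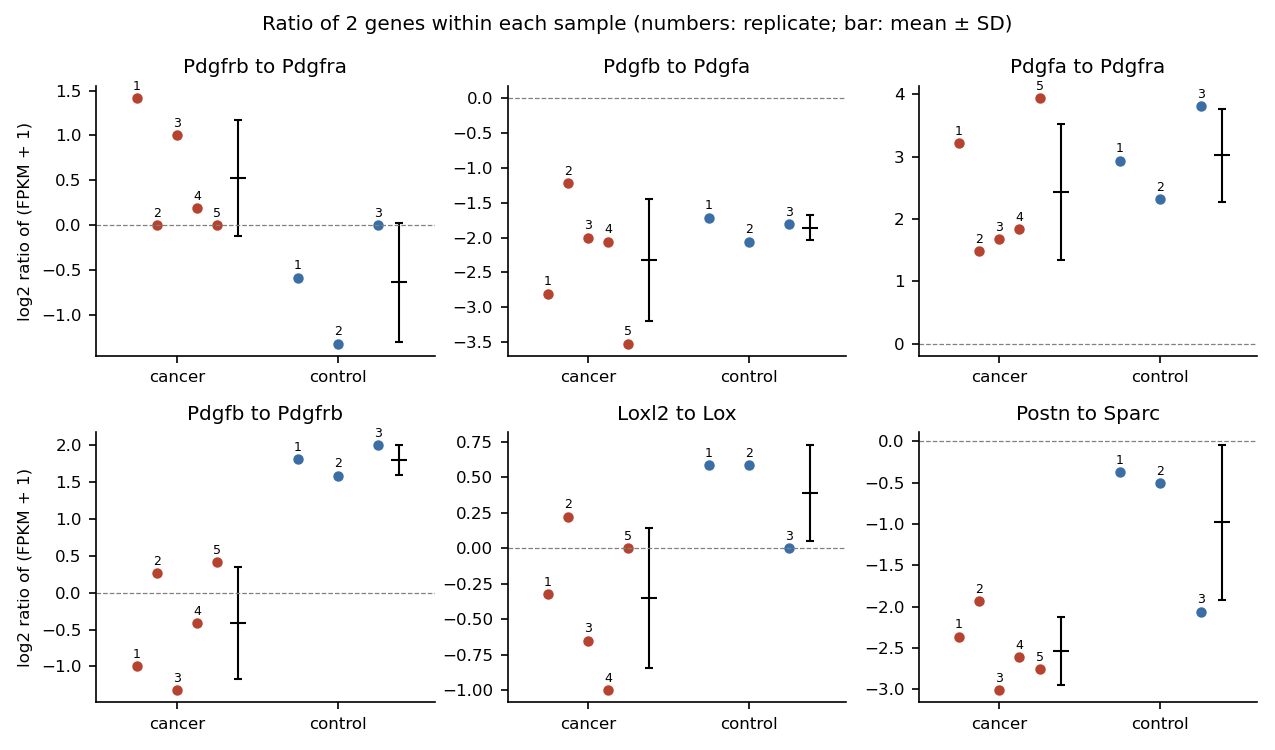
Log2 ratio of 2 genes (vertical axes, log2 of the ratio of FPKM + 1) in 5 cancers (red) and 3 controls (blue), with the replicate number at each point, a bar for the mean ± SD and a dashed line at equal levels. For Pdgfb to Pdgfrb the cancers lie between -1.32 and 0.42 and the controls between 1.58 and 2, with no overlap.

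In the controls the order by mean FPKM was Sparc, Pdgfa, Postn and Pdgfb, at 30 ± 6, 24.3 ± 2.52, 17.7 ± 11.0 and 6 ± 1 (SD, n = 3), and the other 6 genes were below 3 on average. In the cancers Sparc led at 115.6 ± 52.0, followed by Pdgfa at 24.8 ± 12.7, Postn at 20.2 ± 11.4 and Tnc at 10.4 ± 6.39 (SD, n = 5). Then came Thy1 at 8.2, Pdgfrb at 5.8, Loxl2 at 4.6, Pdgfb at 3.8, Pdgfra at 3.6 and Fap at 1. In the cancers, the means of neighbors between Pdgfa and Pdgfra in this order differed by less than the larger of their SDs. By mean FPKM Pdgfrb had rank 9 of 10 in the controls and 6 in the cancers, and Pdgfb rank 4 and 8.

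The cancers also differed among themselves. Summed over the 10 genes, FPKM was 219, 221, 238, 218 and 94 in cancers 1 to 5 and 90, 103 and 70 in controls 1 to 3. This sum is carried by few genes: Sparc gave 138, 133, 160 and 121 of it in cancers 1 to 4, and Pdgfa gave 45 of the 94 in cancer 5. Gene by gene, cancer 5 was the lowest cancer or tied for it except for Pdgfa and Tnc. Even so, 5 of the 10 genes in cancer 5 (Pdgfa, Pdgfrb, Thy1, Tnc and Loxl2) were above every control. Cancer 5 also held the most Epcam, a membrane protein of epithelial cells, at 592 FPKM beside 314 to 394 in cancers 1 to 4 and 159 to 183 in the controls, and Alb (albumin) at 266 beside 1 to 58 and 1. Both were named after their values were seen. The epithelial markers as a list did not place cancer 5 highest, with sums of 902, 3159, 1250, 2174 and 2062 in cancers 1 to 5. The part of epithelial content in the low stromal values of cancer 5 was not tested. Without cancer 5, 5 of the 10 genes were called higher, namely Pdgfrb, Thy1, Sparc, Loxl2 and Fap, the last of which entered the test only through the cancers. In the same fit 15.4% of all genes tested were higher.

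To describe which genes varied together, each group's mean was taken away and Pearson's r of log2(FPKM + 1) over the 8 samples was computed. It was taken between each receptor and 9126 genes with a mean FPKM of at least 5, which share their libraries and scaling. Members below that mean, such as Fap and Loxl2, were ranked against the same genes. Nearest Pdgfrb among the members were Fap (r = 0.91, rank 24), Sparc (r = 0.86, rank 59) and Thy1 (r = 0.81, rank 109). Postn followed at 0.57, while Loxl2 (0.37), Pdgfra (0.35), Tnc (0.10), Pdgfb (0.02) and Pdgfa (-0.54) were farther away. Because Pdgfrb was 1 in every control, these values rest on the 5 cancers, and cancer 5 was lowest for each of Pdgfrb, Fap, Sparc and Thy1. Nearest Pdgfra were Tnc (r = 0.84, rank 49) and Loxl2 (r = 0.81, rank 87), then Postn (0.60), Sparc (0.51), Thy1 (0.42) and Fap (0.40). Over those 9126 genes, the nearest to Pdgfrb were Msc, a transcription factor, at 0.98, Rnf113a2 at 0.98 and Igj, the joining chain of antibodies, at 0.97. Among the nearest to Pdgfra were Zfand1 at 0.94 and 3830406C13Rik at 0.93. Within the 5 cancers alone Tnc and Loxl2 had ranks 270 and 647 from Pdgfra, and Fap, Sparc and Thy1 had ranks 86, 176 and 227 from Pdgfrb.

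The rest of the PDGF pathway was called in both directions, near the rate of all genes. Of 26 other ligands, receptors, co-receptors and signaling genes, 4 were higher, 4 were lower and 18 did not pass, with a median log2 fold change of 0.04, where 16.2% of all genes tested were higher and 18.3% lower. Pdgfrl, a secreted protein related to the PDGF receptors, was listed at 10, 7, 16, 4 and 5 in the cancers and at 0 in the controls. It passed the filter on low values only through the cancers, so its adjusted p of 0.0020 from limma is given as a description. The co-receptor Nrp1 read 12, 5, 11, 6 and 5 FPKM in the cancers against 2, 2 and 1 in the controls (1.66 on the log2 scale, limma adjusted p = 0.0092). Spry4, a feedback inhibitor of receptor tyrosine kinases, had 6, 3, 9, 2 and 7 beside 1 in each control (1.54 on the log2 scale, limma adjusted p = 0.022). In all 3 genes every cancer exceeded the controls. The other ligands stayed low: Pdgfc was at 1, 3, 5, 3 and 2 in the cancers against 3, 3 and 2 in the controls, and Pdgfd at 6, 2, 6, 3 and 4 beside 5, 6 and 4. Neither passed (log2 fold change -0.03 and -0.27, adjusted p = 0.95 and 0.52 from limma), and with TPM both turned positive (0.71 and 0.56), below the median gene. With TPM 13 of the 26 genes were higher and 0 lower, beside 50.0% and 3.68% of all genes.

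Other matrix glycoproteins were counted next. Of 32 related genes 15 were higher, 1 was lower and 16 did not pass, with a median log2 fold change of 1.32, beside 16.2% higher and 18.3% lower of all genes tested. With TPM 23 were higher and 1 lower, beside 50.0% and 3.68%. Spon2 read 11, 17, 56, 26 and 48 FPKM in the cancers against 1 in each control (3.79 on the log2 scale, limma adjusted p = 0.0026). Cthrc1, a secreted protein of activated fibroblasts, had 31, 13, 23, 5 and 6 beside 2, 1 and 2 (2.37 on the log2 scale, limma adjusted p = 0.019). Spock2, a proteoglycan of the SPARC family, had 72, 9, 10, 4 and 34 beside 1 in each control (3.08 on the log2 scale, limma adjusted p = 0.025). The highest cancer differed from gene to gene: cancer 3 for Spon2, and cancer 1 for Cthrc1 and Spock2. Bgn (biglycan) and Fn1 (fibronectin), named after their values were seen, ran from 25 to 126 and from 17 to 44 in the cancers and from 15 to 23 and from 5 to 7 in the controls, with log2 fold changes of 2.13 and 2.10 (adjusted p = 0.017 and 0.0030 from limma). Bgn shared with Sparc its low value in cancer 5, but there Bgn was still above every control.

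Further fibroblast and pericyte markers were counted in the same way. Of 26 markers of activated fibroblasts that could be tested, out of 30 listed, 9 were higher and 0 lower, with a median log2 fold change of 1.06. Higher calls took 16.2% of all genes tested. Without cancer 5 the count was 12, beside 15.4% of all genes, and with TPM 20, beside 50.0%. Ncam1, Grem1 and Cthrc1 led the list. Grem1, a secreted inhibitor of bone morphogenetic proteins, was listed at 9, 5, 26, 16 and 5 in the cancers against 0, 1 and 1 in the controls (limma adjusted p = 0.0090). Ncam1, at 16, 6, 17, 7 and 16 beside 0, 1 and 1, is also made by neuroendocrine cells, and of 11 neuroendocrine and neuronal markers tested 9 were higher, with a median log2 fold change of 4.40. Chga, the granule protein chromogranin A, was at 3247 to 12837 FPKM in the cancers and 108 to 152 in the controls. Among the structural collagens, Col1a1 read 43, 48, 81, 42 and 10 FPKM in the cancers against 9, 15 and 9 in the controls (1.72 ± 0.59, SE, on the log2 scale, limma adjusted p = 0.056). The pattern of Col1a1 was that of Sparc, with cancer 5 inside the controls' range. Col3a1 read 79, 79, 92, 67 and 13 FPKM beside 26, 29 and 15 (1.26 on the log2 scale, limma adjusted p = 0.15). For Col3a1 cancer 5 was below every control, and both collagens were named after their values were seen.

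The markers of resting fibroblasts gave 3 higher, 1 lower and 16 without a call among 20, with a median log2 fold change of 0.40. This share of higher calls was near that of all genes (16.2%). Without cancer 5 the counts were 5 and 1, beside 15.4% of all genes higher, and with TPM 12 and 1, beside 50.0%. Dcn (decorin), a small proteoglycan of most fibroblasts, read 43, 115, 55, 73 and 27 FPKM in the cancers against 64, 54 and 32 in the controls (0.21 on the log2 scale, limma adjusted p = 0.74). Lum (lumican) was at 1 to 27 in the cancers and 4 to 10 in the controls (limma adjusted p = 0.76). Both overlapped between the groups, and both were named after their values were seen. The groups did not overlap for Gsn and Adh1. Gsn (gelsolin), an actin-severing protein also present in epithelium and muscle, fell from 265 to 341 FPKM in the controls to 35 to 178 in the cancers (-2.03 on the log2 scale, limma adjusted p = 0.016). Adh1, an alcohol dehydrogenase, was at 84 to 173 in the cancers and 44 to 65 in the controls (0.96 on the log2 scale, limma adjusted p = 0.025).

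Pericyte markers other than Pdgfrb gave 3 higher, 0 lower and 13 without a call among 16 tested, with a median log2 fold change of 0.67, and this share of higher calls too was near the 16.2% of all genes. Without cancer 5 the counts were 5 higher and 1 lower, beside 15.4% higher and 16.5% lower of all genes. With TPM 7 were higher, beside 50.0% of all genes. Foxc1, a transcription factor of pericytes and other mesenchyme, read 17, 6, 15, 5 and 5 FPKM in the cancers against 1 in each control (2.23 on the log2 scale, limma adjusted p = 0.0080). Kcnj8, a potassium channel subunit of pericytes, had 3, 11, 3, 5 and 13 beside 1, 2 and 1 (1.6 on the log2 scale, limma adjusted p = 0.037). Kcnj8 was highest in cancer 5, where Pdgfrb was lowest. Rgs5, Mcam and Cspg4, common markers of these cells that were named after their values were seen, did not pass. Rgs5 had 40, 13, 24, 8 and 3 beside 11, 11 and 3 (limma adjusted p = 0.47), and Cspg4, which encodes NG2, was listed at 0 to 2 in all 8 samples. Mcam had 15, 17, 16, 14 and 4 beside 5, 5 and 6 (1.04 ± 0.42, SE, on the log2 scale, limma adjusted p = 0.089). Cancers 1 to 4 were above every control for Mcam, and cancer 5 was below them.

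Markers of other cell types moved beside these genes, and their part in the values above was not tested. Their counts stand beside 16.2% of all genes higher and 18.3% lower, or 50.0% and 3.68% with TPM. Of 12 endothelial markers 7 were higher and 0 lower, with a median log2 fold change of 1.25, and they summed to 33 to 101 FPKM in the cancers and 18 to 26 in the controls, lowest among the cancers in cancer 5. The vascular adhesion protein Pecam1 was at 8 to 20 in the cancers and 2 to 5 in the controls. Of 12 macrophage markers 5 were higher and 0 lower, with sums of 183 to 461 in the cancers and 53 to 87 in the controls. With TPM 11 of 12 were higher in either list. Smooth muscle markers gave no call among 9 tested on either scale, with a median log2 fold change of -0.70 that turned to 0.15 with TPM. Their sum was 21, 1165, 349, 246 and 47 in cancers 1 to 5 beside 238 to 399 in the controls. Acta2, an actin of smooth muscle and of myofibroblasts, had nearly this order with 12, 295, 101, 83 and 11 beside 86, 69 and 87, and was named after its values were seen. Acta2 is also on the activated fibroblast list and gave 295 of its sum of 1164 in cancer 2. The sum of the 10 genes showed no such peak there. T cell markers gave 0 calls among 8 tested and platelet markers 0 among 4, and each list 2 higher with TPM. Adipocyte markers gave 1 lower call among 3, with Adipoq at 49 and Plin1 at 13 in cancer 1 and both at 0 or 1 elsewhere. Enteric glia gave 2 higher and 1 lower among 5, with Sox10, its defining factor, at 0 in every sample. Mesothelial markers gave 2 lower calls among 4 tested. With TPM the lower calls were 1 for mesothelial markers and 0 for adipocyte and enteric glia markers.

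The epithelial makeup of the pieces differed as well. Counts of these lists also stand beside 16.2% of all genes higher and 18.3% lower, or 50.0% and 3.68% with TPM. Of 10 general epithelial markers 3 were higher and 4 lower, and with TPM 3 and 1. Gastric gland markers summed to 694 to 78716 FPKM in the cancers and 158537 to 240752 in the controls, and squamous markers to 1 to 1995 and 2771 to 4716. By these sums the controls held both tissues that meet at the SCJ, as labelled, and cancer 1 held the least of either. Of the 10 markers in each list, 1 gland gene and 2 squamous genes were lower, and 1 of each with TPM. Genes of stress and tissue handling gave 1 lower call among 10 and a median log2 fold change of -0.86, which turned to 0.07 with TPM, with a sum of 383 in cancer 5 beside 117 to 183 in cancers 1 to 4 and 220 to 294 in the controls. Over all 19 lists, 61 of 225 different genes tested were higher and 18 were lower, beside 16.2% and 18.3% of all genes. With TPM 124 of them were called, where 7704 of all 14357 genes were.

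**Figure D4:**
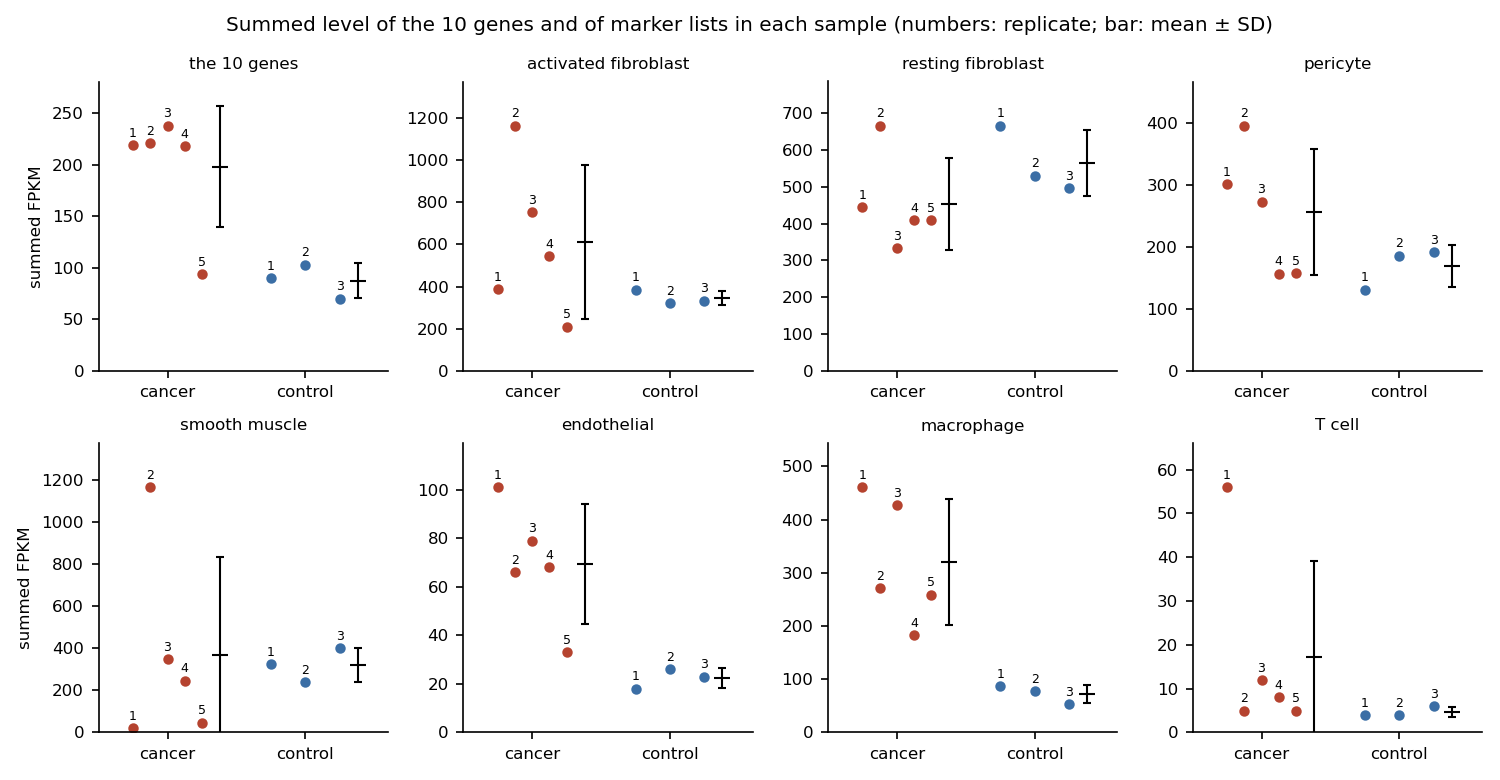
Summed FPKM (vertical axes, from 0) of the 10 genes and of 7 marker lists in 5 cancers (red) and 3 controls (blue), with the replicate number at each point and a bar for the mean ± SD; bars that would pass below 0 end at the axis. The 10 genes sum to 218 to 238 in cancers 1 to 4 and to 94 in cancer 5, while smooth muscle peaks in cancer 2 at 1165 and T cells in cancer 1 at 56.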

How the data were processed

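RNA was extracted with a mirVana kit from 5 SCJ cancers and 3 control SCJ samples, and directional poly(A)+ libraries were made. Per the submitters' processing notes, reads were trimmed with cutadapt 1.8 and aligned with TopHat2 2.0.13. The authors quantified UCSC mm10 genes with cuffquant and generated FPKM with cuffnorm 2.2.1, whose normalization option is not given in the sources used here. The deposited FPKM are rounded to whole numbers (100% of values), so they were handled as a score, never as counts of reads. Depth is unknown, so no counting intervals are given.

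A gene entered the test if it reached an FPKM of 1 in at least 3 samples (14357 genes). In R 4.3.3, limma 3.58.1 was fitted to log2(FPKM + 1) with lmFit and a trended eBayes, and p-values were adjusted by Benjamini-Hochberg at a threshold of 0.05. The fit was tested on simulated data first. Fold changes on this scale understate those of low genes. Single genes and the 6 ratios were compared by two-sided exact permutation tests over 56 splits. The range that rounding allows was computed with each value moved by 0.5.

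The 10 genes and the 19 lists (256 of 257 entries matched) were chosen with earlier results of these data known. Named from each list were up to 3 genes with the largest absolute change among those that passed without overlap between groups. Also named were the lysyl oxidases, Pdgfc, Pdgfd, Pdgfrl, Trp53, Rb1, the first 2 markers of each other cell type where a result turns on them, and the 3 genes most like each receptor. Other genes (Dcn, Lum, Col1a1, Rgs5, Mcam and Cspg4 from the cell type markers, and those said to be so in the text) were named after their values were seen. Some genes that these rules give are counted but not reported here by name. Replicate numbers 1 to 3 did not pair cancers with controls by label. Coordinates are in mm10, counted from 1. Promoters are from RefSeq (GRCm38.p6), and no promoter entry was used for Pdgfb, Pdgfrb, Fap, Thy1 and Loxl2. Alternatives were pseudocounts of 0.1 and 0.01, no filter, a mean FPKM of at least 5, TPM, size factors by the median of ratios, quantile normalization, eBayes without trend, array weights, the replicate number as a block and leaving out each sample.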

Additional observations from a re-analysis of the deposited data

Results flagged for a closer look

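For each of 95 genes and 6 ratios in the 5 cancers, the gap of the highest or lowest cancer to the next was divided by the range of the 5, and a value above 0.71 was taken as a cancer standing apart. Chance gives about 5% of such values, 5.05 of 101, and 22 were found, none of them among the 10 genes or the ratios. Of the 10, Sparc came nearest, with 0.709 for cancer 5. Among the 22, cancer 1 stood apart as the highest for Adipoq (0.980), Plin1 (1), Cd3e (0.833), Cd3d (0.75), Cd3g (0.778) and Pecam1 (0.833). Cancer 2 was highest for the muscle genes Myh11 (0.778) and Des (0.741), and for Loxl4 (1), which was listed at 1 there and at 0 in the other cancers. Cancer 3 was highest for the complement genes of macrophages, C1qa (0.786), C1qb (0.796) and C1qc (0.841), whose values in it were 117, 87 and 75 FPKM. Cancer 4 was highest for Krt5 (0.852), a keratin of squamous epithelium, at 574 FPKM. Cancer 5 was highest for Adh1 (0.831), Alb (0.785), Epcam (0.712) and the early response genes Egr1 (0.826) and Fos (0.76), and lowest for Mcam (0.769) and Vim (0.719). Mcam, Des, Vim, Egr1, Fos, Epcam, Krt5, Cd3g and Alb were named after their values were seen, so the share that chance gives does not apply to them. For Loxl4 a single step of the rounded scale sets the value.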

How the results depend on the processing

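Over 175 values of single genes under the alternatives, 132 kept their direction and their side of the threshold, 12 lost the call, 22 gained one and 9 changed sign. The 60 values of the ratios kept their direction, but their p-values could hardly pass and say nothing about stability. The median log2 fold change of the 10 genes was 0.98 and moved to 1.46 and 1.5 with pseudocounts of 0.1 and 0.01 and to 1.67 with TPM. Against 3 calls, 7 genes were called with TPM, 5 with the median of ratios and 7 with array weights (6 higher, and Pdgfb lower). Over all genes, against 4948 calls, there were 7704 with TPM (93.1% of them higher, against 47.0%), 8148 with array weights and 1534 with the replicate block. Of the genes in the lists, against 79, 124 were called with TPM. With the replicate block 3 genes were called, namely Pdgfrb, Fap and Sparc, while Thy1 and Loxl2 were not (limma adjusted p = 0.065 and 0.12) and Tnc had an adjusted p of 0.19. The replicate numbers share no animal or batch in the labels, and deviations of same-numbered samples correlated at -0.021, -0.194 and -0.104, so the numbers were not taken as pairs. With a sample left out, calls among the 10 genes ranged from 0 to 5, calls higher from 0 to 5 and calls over all genes from 2490 to 5252. The count of 0 came without control 1, 2 or 3 and that of 5 without cancer 5. Signs changed for Pdgfa (from -0.10 to 0.84 with TPM, 0.22 with quantile normalization, 0.085 without cancer 2 and 0.037 without cancer 3), for Pdgfb (from -0.56 to 0.25 with TPM) and for Postn (from 0.15 to -0.33 with array weights, -0.014 without cancer 1, -0.11 without cancer 2 and -0.54 without control 3). Without cancer 5, Pdgfa was at -0.34 and Postn at 0.68. Why these values changed was not tested.  Whole-number FPKM limit the precision of Fap, Pdgfrb, Pdgfra, Loxl2 and Pdgfb, and 5 of the 10 genes had a mean FPKM under 5 and left the test under that filter, with 3 of the other 5 called.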
